A study of Mus musculus with 15 samples.

Results

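Among the 55416 genes counted in mouse whole blood, 7 glucocorticoid-responsive genes were followed here: Nr3c1, which encodes the glucocorticoid receptor, and Tsc22d3, Fkbp5, Zbtb16, Sgk1, Ddit4 and Klf9, which glucocorticoids are known to induce. They were chosen by name, with earlier results of these data known, as genes in which surgical or handling stress might be read. All 7 matched a counted identifier. The 15 libraries were each made from 1 female C57BL/6 mouse, with 5 mice in each of 3 groups. For all groups the labels give an orthotopic tumor of 4MOSC1, a mouse oral squamous carcinoma line, grown in the tongue for 10 days. The early ND and late ND mice received 2 doses of αCTLA-4, an antibody against the T cell checkpoint receptor CTLA-4, and an early or a late neck dissection (ND), in which the draining lymph nodes of the neck are removed. The untreated mice had neither drug nor surgery. No group with the antibody alone or with a sham operation was among these libraries, so the drug, the operation and the handling that goes with it cannot be told apart in a comparison with untreated mice. The study places the blood draw after the late operation in its text and before it in a figure legend. Late ND therefore names a group here, not a known time after surgery. Buprenorphine was given as needed for pain, and the hour of the cheek bleed is not given in the sources used here.

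Corticosterone, the main glucocorticoid of mice, is released by the adrenal gland in a daily rhythm and under stress. It binds the glucocorticoid receptor, which heat shock chaperones hold in the cytoplasm, and the bound receptor enters the nucleus and acts on genes near glucocorticoid response elements. Such an element is an inverted repeat of a short core, AGAACA. In blood, glucocorticoids are known to raise the number of circulating neutrophils and to lower that of lymphocytes. Tsc22d3 encodes GILZ, an anti-inflammatory leucine zipper protein, and Fkbp5 encodes a co-chaperone that dampens the receptor. Zbtb16 encodes the transcription factor PLZF, Sgk1 a kinase, Ddit4 the mTORC1 inhibitor REDD1 and Klf9 a zinc finger transcription factor.

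The response element is shown here because it is the feature through which the receptor is known to act on these genes. RefSeq promoter windows (build GRCm38.p6, 250 bases before to 50 after a start site) were found for 5 of the 7 genes, 12 windows in all. Zbtb16 and Nr3c1 had no window. The full site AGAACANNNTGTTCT, searched on both strands, was present in 1 of the 12 windows and in 3 of 32851 windows of the genome (0.00913%). That window belongs to Sgk1 (chr10:21993640-21993939, plus strand), where the site ends 174 bases before the start. The core alone, AGAACA or TGTTCT, was present in 4 of the 12 windows, 3 of Sgk1 and 1 of Tsc22d3, and in 19.0% of all windows. The Tsc22d3 core (chrX:140600473-140600772, minus strand) ends 179 bases before the start. The windows of Fkbp5, Ddit4 and Klf9 did not hold these letters, and bases outside the windows were not searched. Sgk1 had the most windows of the 5 genes, so the counts over the 12 windows lean on it. Of the 3 cores in the Sgk1 window, 2 are the arms of the full site. In the sequences, read 5′ to 3′, capitals mark the full site in Sgk1 and the core in Tsc22d3.
Sgk1: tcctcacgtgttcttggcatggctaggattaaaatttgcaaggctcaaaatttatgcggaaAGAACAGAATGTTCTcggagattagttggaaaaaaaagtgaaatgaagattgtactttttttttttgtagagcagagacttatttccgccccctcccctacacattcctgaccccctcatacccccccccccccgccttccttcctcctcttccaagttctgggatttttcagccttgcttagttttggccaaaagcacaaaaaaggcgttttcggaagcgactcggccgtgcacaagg
Tsc22d3: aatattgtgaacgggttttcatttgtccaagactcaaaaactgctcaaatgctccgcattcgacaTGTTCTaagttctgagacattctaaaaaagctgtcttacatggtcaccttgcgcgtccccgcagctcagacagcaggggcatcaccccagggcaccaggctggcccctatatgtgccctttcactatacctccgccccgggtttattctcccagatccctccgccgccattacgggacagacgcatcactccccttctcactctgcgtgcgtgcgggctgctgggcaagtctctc

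Gene counts per library ran from 5527108 to 13924361, with medians of 6266684 in untreated, 6727311 in early ND and 10929570 in late ND mice. Hemoglobin genes took 14.9% to 29.3% of the counts in late ND libraries and 31.6% to 64.1% in the others. Values are therefore given as TMM-normalized CPM, that is, counts scaled to a library size that is corrected for such dominant transcripts (trimmed mean of M values). In 3 libraries, untreated 2, late 2 and late 3, 18S ribosomal RNA was at 313 to 766 CPM of the total, whereas the other 12 had at least 13402. Genes of skin and its sebaceous glands stood apart in untreated 5, early 3 and late 5, where Scd3, a sebaceous gland desaturase, was at 624, 323 and 481 CPM against at most 145 in the other 12. The label of whole blood was borne out by abundant neutrophil, T cell, B cell, platelet and hemoglobin transcripts, with no gene of these lists at 0 in every library of a group.

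Tsc22d3 was by far the most abundant of the 7 genes. Per kilobase of exon, its mean level over the 15 libraries was 41.7 ± 6.82 CPM (SD), above each of the other 6 genes in 15 of 15 libraries. Ddit4 followed at 11.4 ± 4.04 and Nr3c1 at 10.6 ± 1.49 CPM per kilobase. These neighbors were not separated, since Ddit4 exceeded Nr3c1 in 8 of 15 libraries. Sgk1 at 6.80 ± 1.73 and Fkbp5 at 4.19 ± 2.03 came next, in that order in every library. Klf9 at 0.713 ± 0.190 and Zbtb16 at 0.573 ± 0.255 CPM per kilobase were the lowest, and Klf9 exceeded Zbtb16 in 10 of 15 libraries. Zbtb16 rested on 6 to 152 counts per library and Klf9 on 15 to 169, so both were measured with few reads. The following levels are TMM-normalized CPM without length scaling, listed for libraries 1 to 5 of each group.

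**Figure D1:**
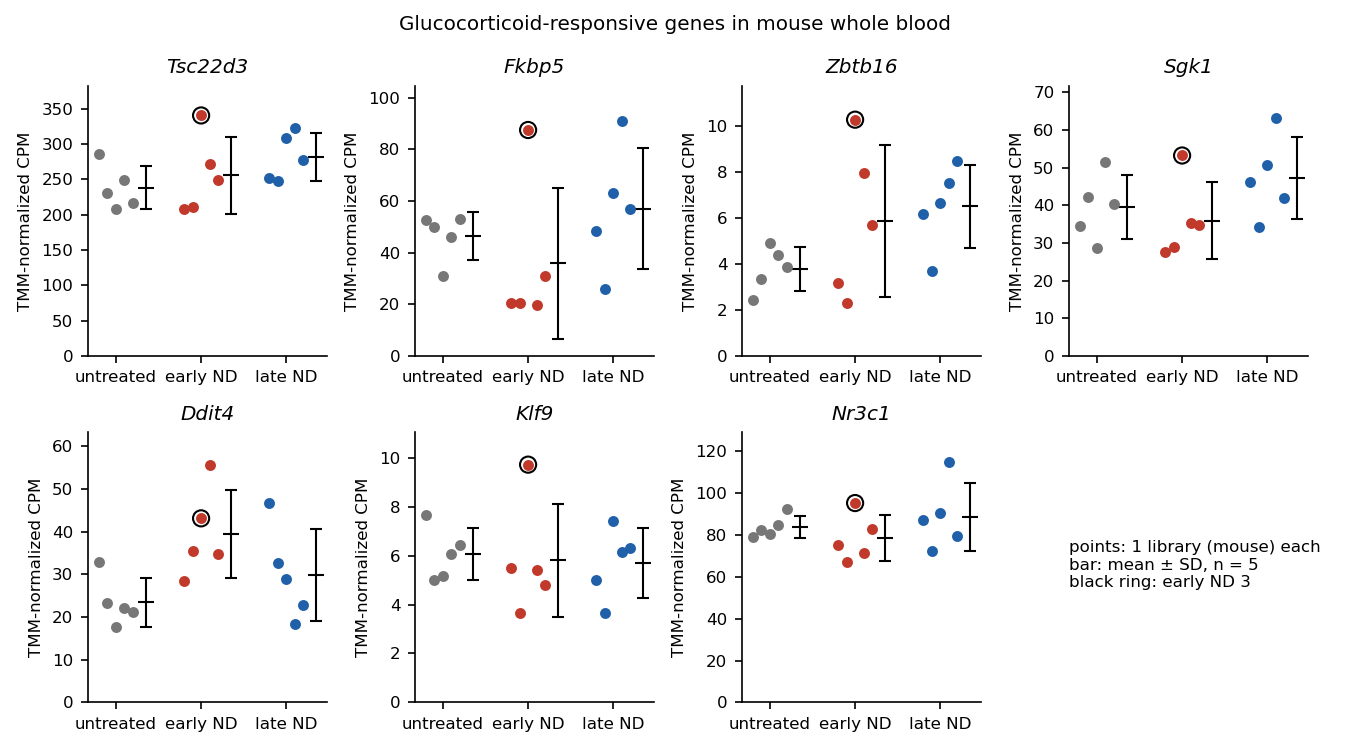
TMM-normalized CPM of the 7 glucocorticoid-responsive genes (vertical axes, linear, from 0) in untreated, early ND and late ND mice (horizontal axis). Each point is 1 library, bars give the mean ± SD of 5 libraries and the ringed point is early 3. The groups overlap for each gene, and early 3 is the highest early ND library in 6 of the 7 panels.

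The receptor gene Nr3c1 (ENSMUSG00000024431.16, GRCm39 chr18:39543598-39652474, minus strand) varied least of the 7 among untreated and among early ND mice. Its level was 79.2, 82.5, 80.6, 84.7 and 92.4 CPM in the untreated libraries. It was 75.3, 67.1, 95.2, 71.4 and 82.9 in early ND and 87.0, 72.2, 90.5, 114.8 and 79.3 in late ND libraries. The group means were 83.9 ± 5.20 in untreated, 78.4 ± 11.1 in early ND and 88.8 ± 16.2 CPM in late ND mice (SD, n = 5 each), so the groups overlapped and their means lay within 1 SD of the late ND group. A gene on the opposite strand overlaps 14.8% of the exon bases of Nr3c1, and the strand setting of the counting is not given in the sources used here.

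Tsc22d3 (ENSMUSG00000031431.14, chrX:139440091-139501408, minus strand) was at 286, 230.0, 209, 249 and 217 CPM in the untreated libraries. It was at 207, 211, 340.3, 272 and 249 in early ND and at 252, 247, 309, 323 and 278 in late ND libraries. Early 3 was the highest of all 15, and 2 late ND libraries, 3 and 4, lay above every untreated one. The means were 238 ± 30.8 in untreated, 256 ± 54.4 in early ND and 282 ± 33.7 CPM in late ND mice (SD, n = 5 each).

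Fkbp5 (ENSMUSG00000024222.18, chr17:28618058-28737521, minus strand) had the widest spread of the 7 in both ND groups, relative to its mean. It was at 52.7, 49.8, 30.8, 46.0 and 53.0 CPM in the untreated libraries. It was at 20.5, 20.5, 87.4, 19.8 and 30.8 in early ND and at 48.4, 26.0, 62.9, 90.8 and 56.8 in late ND libraries. The early ND group was split, with 4 libraries below the lowest untreated value and early 3 above the highest. Of the 4, early 5 lay below untreated 3 only marginally, at 30.77 against 30.79 CPM. The means were 46.5 ± 9.21 in untreated, 35.8 ± 29.2 in early ND and 57.0 ± 23.5 CPM in late ND mice (SD, n = 5 each), and no early ND library lay near the early ND mean except early 5. Opposite-strand genes overlap 3.6% of its exon bases.

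Zbtb16 (ENSMUSG00000066687.6, chr9:48563141-48748664, minus strand) was at 2.41, 3.34, 4.89, 4.39 and 3.87 CPM in the untreated libraries. It was at 3.18, 2.32, 10.3, 7.94 and 5.67 in early ND and at 6.17, 3.69, 6.66, 7.53 and 8.46 in late ND libraries. In both ND groups most libraries exceeded every untreated one, 3 of 5 in early ND and 4 of 5 in late ND mice, but late 2 and early 1 and 2 did not. The means were 3.78 ± 0.960, 5.88 ± 3.30 and 6.50 ± 1.80 CPM in untreated, early ND and late ND mice (SD, n = 5 each).

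Sgk1 (ENSMUSG00000019970.16, chr10:21758083-21875802, plus strand), whose promoter holds the full site printed above, was at 34.6, 42.3, 28.8, 51.4 and 40.3 CPM in the untreated libraries. It was at 27.5, 28.8, 53.2, 35.4 and 34.7 in early ND and at 46.3, 34.2, 50.6, 63.3 and 41.9 in late ND libraries. Early 3 was again the highest of its group, and late 4 the highest of all. The means of 39.5 ± 8.50, 35.9 ± 10.3 and 47.3 ± 10.8 CPM (SD, n = 5 each, in the same group order) differed by about 1 SD at most. Opposite-strand genes overlap 14.4% of its exon bases.

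Ddit4 (ENSMUSG00000020108.5, chr10:59785491-59788492, minus strand) followed another order of libraries. It was at 33.0, 23.2, 17.6, 22.1 and 21.1 CPM in the untreated libraries. It was at 28.5, 35.4, 43.1, 55.6 and 34.7 in early ND and at 46.6, 32.6, 29.0, 18.5 and 22.7 in late ND libraries. All early ND libraries but early 1 lay above every untreated one, and the highest was early 4 rather than early 3. Late 4, which was highest in its group for Tsc22d3, Fkbp5, Sgk1 and Nr3c1, was the lowest for Ddit4. The means were 23.4 ± 5.75 in untreated, 39.5 ± 10.4 in early ND and 29.9 ± 10.8 CPM in late ND mice (SD, n = 5 each).

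Klf9 (ENSMUSG00000033863.3, chr19:23118187-23148497, plus strand) was at 7.64, 5.01, 5.18, 6.08 and 6.45 CPM in the untreated libraries. It was at 5.48, 3.64, 9.72, 5.41 and 4.80 in early ND and at 4.99, 3.65, 7.40, 6.13 and 6.32 in late ND libraries. The means of 6.07 ± 1.06, 5.81 ± 2.30 and 5.70 ± 1.43 CPM (SD, n = 5 each) were the closest of any of the 7 genes. Opposite-strand genes overlap 4.1% of its exon bases.

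The first comparison asked whether these genes differed between early ND and untreated mice. None of the 7 passed an adjusted p of 0.05 (edgeR quasi-likelihood test, adjusted by Benjamini-Hochberg across every gene tested, as throughout), and DESeq2 also called 0. Of all 12151 genes tested, 0 passed in edgeR, a background of 0%. All 7 genes overlapped between the groups, as did all but 0.576% of genes. Before adjustment, p was under 0.05 for 1 of the 7, Ddit4, and for 4.44% of all genes (539). Ddit4 was 1.68-fold higher in early ND mice (95% interval 1.26 to 2.24, log2 difference 0.75, SE 0.19) and ranked 12 of 12151 genes by p, but its edgeR adjusted p was 0.938. Its unadjusted p stayed between 0.000415 and 0.00584 when each of the 10 libraries was left out in turn, and its adjusted p between 0.405 and 1. Fkbp5 was 0.780-fold (interval 0.437 to 1.40) and Zbtb16 1.52-fold (0.860 to 2.68). Without early 3, the Fkbp5 log2 difference moved from -0.36 to -1.03, with an unadjusted p of 0.000163 and an adjusted p of 0.405 in edgeR. For Nr3c1 the interval of the fold, 0.778 to 1.12, was the narrowest, and for Tsc22d3 it was 0.840 to 1.37. Over the 7 genes 3 log2 differences were positive and 4 negative, with a median of -0.025, and the median of all genes was -0.0022.

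The second comparison set late ND against untreated mice, again with 0 of 7 genes called by edgeR or DESeq2. Across all 13547 genes tested, 3% were called (406 genes). Late ND and untreated libraries overlapped for all 7 genes, and did not overlap for 5.48% of all genes. Before adjustment, p was under 0.05 for Zbtb16 (1 of 7) and for 17% of all genes. The log2 difference of Zbtb16 was 0.76 (95% interval of the fold 1.18 to 2.45, SE 0.24), with an adjusted p of 0.126 in edgeR. Leaving out each library kept its unadjusted p between 0.00115 and 0.0280 and its adjusted p between 0.0602 and 0.276. Tsc22d3 was 1.18-fold (0.972 to 1.44, adjusted p = 0.385), Ddit4 1.29-fold (0.902 to 1.85) and Sgk1 1.19-fold (0.910 to 1.55). For Nr3c1 the fold was 1.06 (0.880 to 1.27). The log2 differences were positive for 6 of the 7 genes, Klf9 being the exception at -0.068, and their median was 0.25 beside 0.0023 for all genes. Scaled by library totals instead of TMM, 6 of the 7 were called higher and Klf9 was not (edgeR adjusted p = 0.0592). Of all 13547 genes, 7484 were then called higher too. The median of all genes stood at 0.91 and the 7 values at 0.85 to 1.65.

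The third comparison, late against early ND, also called 0 of 7 genes in edgeR and in DESeq2, where edgeR called 4.98% of all 13315 genes tested (663 genes). The groups overlapped for all 7 genes, and did not for 5.91% of all genes. Before adjustment, none of the 7 (0) had p under 0.05, against 23.8% of all genes. Sgk1 was 1.33-fold higher in late ND mice (95% interval 0.986 to 1.79, log2 difference 0.41, SE 0.20, edgeR adjusted p = 0.234). Fkbp5 was 1.58-fold (0.825 to 3.01, log2 difference 0.66, SE 0.43, adjusted p = 0.390). Ddit4 pointed the other way at 0.779-fold (0.541 to 1.12), and the log2 differences of Klf9 and Zbtb16 were -0.028 and 0.18. The median over the 7 genes was 0.18 and that of all genes 0.014. Scaled by library totals, all but Ddit4 were called higher (6 of 7), as were 8923 of all 13315 genes. The median of all genes was then 0.86 and the 7 values ran from 0.55 to 1.39. The 3 comparisons share libraries in pairs, so their values are not independent of each other.

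**Figure D2:**
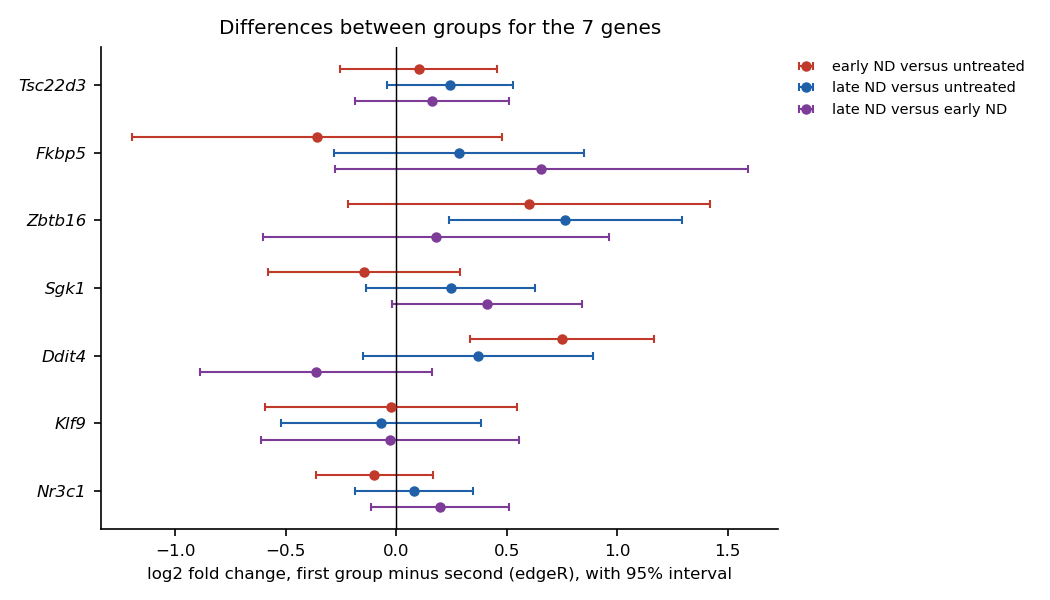
Log2 fold changes of the 7 genes (horizontal axis, first group minus second, edgeR) with 95% intervals, for early ND versus untreated, late ND versus untreated and late ND versus early ND. The intervals clear 0 for Ddit4 in early ND versus untreated (0.34 to 1.17) and for Zbtb16 in late ND versus untreated (0.24 to 1.29), and neither passed the adjusted threshold.

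In late against early ND mice, the fits with 1 library left out called Fkbp5 and Sgk1 only without early 3. The other members were called in none of these fits. Early 3 was the highest early ND library for 6 of the 7 genes. Late 2 was the lowest late ND library for the same 6, Ddit4 being the exception in both. Without early 3, Fkbp5 was higher in late ND mice by 1.33 on the log2 scale (edgeR adjusted p = 0.0180) and Sgk1 by 0.62 (adjusted p = 0.0338). The calls over all genes then rose as well, from 333 to 1057 higher and from 330 to 553 lower, with 13315 and 13676 genes tested. With early 3 kept, leaving out each of the other 9 libraries called 0 of the 7 genes. The libraries rich in sebaceous gland genes, untreated 5, early 3 and late 5, include early 3, so leaving them out is not a separate check. Without them Fkbp5 was higher by 1.31 (edgeR adjusted p = 0.0328) and Sgk1 differed by 0.63 (adjusted p = 0.0522). Early 3 differed from the other early ND libraries in its cell markers too. It had the highest summed level of the 10 neutrophil markers (7303 CPM against 2328 to 6581), the lowest of the 10 T cell markers (275 CPM against 400.3 to 498) and the highest of the 11 skin and sebaceous gland markers (591 CPM against 37.8 to 67.0). Their part in the Fkbp5 and Sgk1 values of early 3 was not tested.

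**Figure D3:**
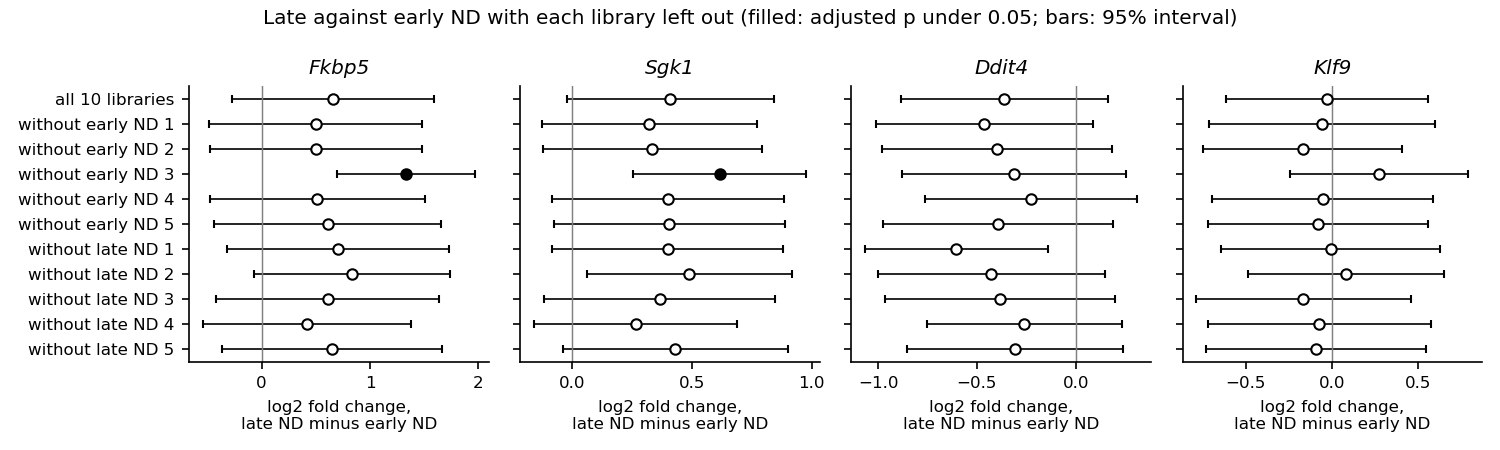
Log2 fold change of late ND minus early ND for Fkbp5, Sgk1, Ddit4 and Klf9 (horizontal axes, 95% intervals, edgeR) with all 10 libraries and with each left out (rows). Filled points have an adjusted p under 0.05, which occurred for Fkbp5 (1.33) and Sgk1 (0.62) without early 3 and in no other row.

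The spread among mice of one group followed the neutrophil markers for 3 of the 7 genes. The share of all genes that follow these markers was not computed, so the count cannot be read as particular to the 7. Levels were taken as log2 values minus their group mean, and 42 relations (7 genes with 6 cell marker sums) were tested over the 15 libraries by permuting libraries within groups, with Benjamini-Hochberg adjustment. Against the neutrophil marker sum, Pearson's r was 0.856 for Sgk1 (permutation test p = 0.00022, adjusted p = 0.00784), with Spearman's rho of 0.832 (permutation test p = 0.00044, adjusted p = 0.0103). For Nr3c1, r was 0.813 (permutation test p = 0.00056, adjusted p = 0.00784) and rho 0.857 (permutation test p = 0.00049, adjusted p = 0.0103). For Fkbp5, r was 0.798 (permutation test p = 0.00052, adjusted p = 0.00784) and rho 0.746 (permutation test p = 0.00315, adjusted p = 0.0441). Leaving out the 2 libraries farthest from the median marker level gave r of 0.827, 0.858 and 0.793 for Sgk1, Nr3c1 and Fkbp5, and leaving out early 3 gave 0.826, 0.766 and 0.798. Among the 12 libraries rich in 18S sequence r was 0.832, 0.812 and 0.769 in the same order, and the 3 poor libraries were too few for a value. Tsc22d3, Klf9 and Zbtb16 had r of 0.610, 0.576 and 0.452 and Ddit4 of -0.023, none past the adjusted threshold in the permutation test. Against the T cell marker sum, r was -0.747 for Fkbp5 and -0.563 for Sgk1 (permutation adjusted p = 0.0606 and 0.176). Without early 3 these were -0.412 and -0.232. Against the skin and sebaceous gland sum, r was 0.511 and 0.368 (permutation adjusted p = 0.202 and 0.362). Leaving out early 3 gave 0.165 and 0.064. Two-sided tests were used throughout, and in bulk blood more neutrophils and more RNA of a gene per neutrophil cannot be told apart.

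**Figure D4:**
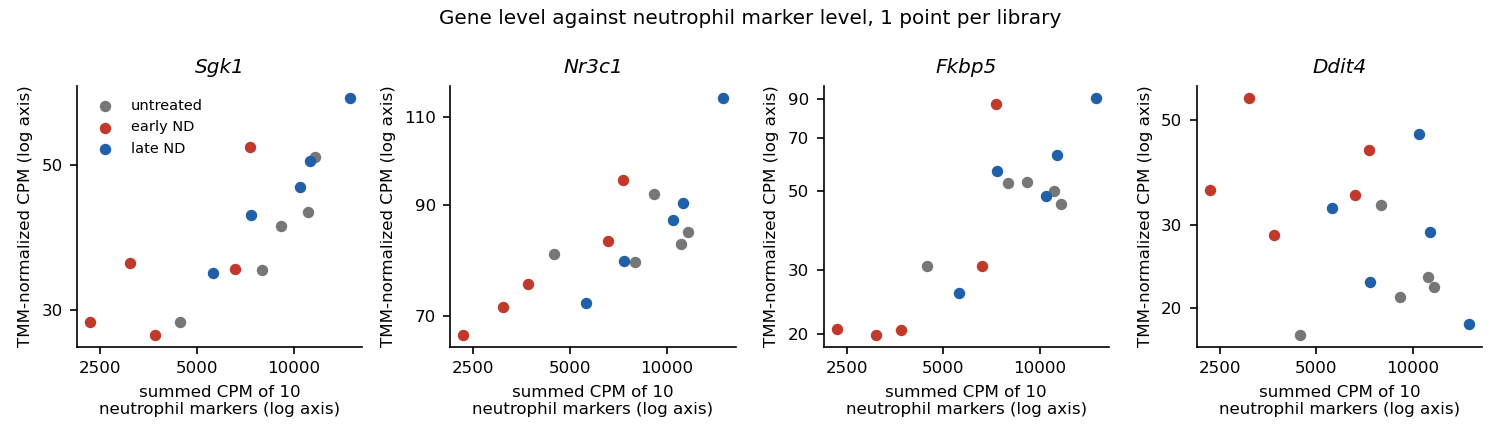
TMM-normalized CPM of Sgk1, Nr3c1, Fkbp5 and Ddit4 (vertical, log axes) against the summed CPM of 10 neutrophil markers (horizontal, log axes), 1 point per library, colored by group. The first 3 genes rise with the marker sum, and Ddit4, with r of -0.023 after removal of group means, does not.

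The summed level of the 10 neutrophil markers had its lowest mean in early ND mice. It was 8852 ± 2881 CPM in untreated, 4600 ± 2207 in early ND and 9923 ± 3623 in late ND mice (SD, n = 5 each). In late against early ND mice 8 of the 10 log2 differences were positive and 2 negative, those of the granule genes Camp (-0.42) and Ltf (-0.066). At an unadjusted p under 0.05, 7 of the 10 were higher, beside 23.8% of all genes in either direction. Past the adjusted threshold was 1 of the 10, beside 4.98% of all genes. This was the collagenase Mmp8, higher by 1.81 on the log2 scale (edgeR adjusted p = 0.0496). Its call was kept without early 3 or late 2 and lost without any 1 of the other 8 libraries (adjusted p up to 0.128). In early ND against untreated mice 5 of the 10 were lower at an unadjusted p under 0.05, beside 4.44% of all genes, and 0 passed. The alarmin S100a9 differed by -1.08 (edgeR adjusted p = 0.938) and S100a8 by -1.17 in that comparison. For the T cell markers in late ND against untreated mice, 10 of 10 log2 differences were negative. At an unadjusted p under 0.05, 9 were lower, beside 17% of all genes, and 2 passed the adjusted threshold, beside 3%. These were the T cell receptor constant gene Trbc2, which fell by 0.74 (edgeR adjusted p = 0.0242), and the CD3 chain gene Cd3g, which fell by 0.63 (adjusted p = 0.0274). The call of Trbc2 was lost without untreated 3 or any late ND library (adjusted p up to 0.0712), and that of Cd3g without any library but untreated 5 (up to 0.0832). No B cell marker passed in any of the 3 comparisons, where at an unadjusted p under 0.05 there were 0 of 8 each time. The B cell marker sum was negatively related to Nr3c1 (r = -0.77, permutation adjusted p = 0.0490) and to Zbtb16 (r = -0.66, permutation adjusted p = 0.0490) across libraries, but the rho values did not pass (permutation adjusted p = 0.184 and 0.112). These relations were tested among mice of the same group. The part of cell composition in the differences of the 7 genes between groups was not tested.

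Several of the genes also varied together among mice of the same group. Of the 21 pairs among the 7 genes, again with group means removed, 7 passed in both Pearson's and Spearman's permutation tests. Pairs of other genes were not tested, so no background share stands beside this count, and a shared cause was not tested. Fkbp5 took part in 4 of the 7 pairs, with Sgk1 (r = 0.840), Nr3c1 (0.836), Klf9 (0.816) and Tsc22d3 (0.787), and permutation adjusted p from 0.00785 to 0.0178. The other 3 were Tsc22d3 with Klf9 (0.807), Sgk1 with Nr3c1 (0.796) and Tsc22d3 with Sgk1 (0.743, permutation adjusted p = 0.0174). Without early 3 these 7 values of r ran from 0.598 to 0.808. The 7 pairs did not include Ddit4 or Zbtb16.

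Outside the list, the genes whose levels followed each member most closely were named over all 15 libraries, without removal of group means, among 9519 genes with a mean of at least 5 CPM. These r values are descriptions without a test, and the libraries share their depth and composition. Among the closest to Nr3c1 were Cr1l (r = 0.942) and Ankrd13a (0.940). For Fkbp5 the nearest were Rab11fip1 (0.948), Crispld2 (0.944) and Il1rap (0.938), and for Sgk1 Clip1 (0.946), Piwil2 (0.946) and Cd300lf (0.941). Tsc22d3 was nearest to Ddx39a (0.911), Adgre5 (0.879) and Atxn7l1 (0.866), and Zbtb16 to Cxcr4 (0.851), Tmem202 (0.827) and Pcsk7 (0.805). Klf9 and Ddit4 had the loosest matches, with Ppm1a (0.820), Mdm1 (0.810) and Gm26810 (0.787) for Klf9 and Vasn (0.786), Gbp5 (0.780) and Inpp5f (0.777) for Ddit4.

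The machinery that acts with the receptor showed few calls. Of 8 receptor chaperone genes, all tested in each comparison, 0 passed in edgeR, with 2 lower at an unadjusted p under 0.05 in early ND against untreated mice, 0 in late ND against untreated mice and 2 higher in late against early ND mice, beside 4.44%, 17% and 23.8% of all genes in either direction in the 3 comparisons. Their most abundant members, the heat shock cognate Hspa8 and the HSP90 gene Hsp90ab1, differed by -0.35 and -0.30 on the log2 scale in early ND against untreated mice (edgeR adjusted p = 0.938 for both). Of 8 receptor coregulators, 0 passed, with 0, 3 and 2 higher at an unadjusted p under 0.05 in the 3 comparisons in that order, beside the same shares of all genes. The corepressor Ncor1 differed by 0.24 (adjusted p = 0.280) and the acetyltransferase Ep300 by 0.46 (adjusted p = 0.0532) in late against early ND mice. Of 4 genes of steroid metabolism and the mineralocorticoid receptor, 2 had enough counts to be tested. In late ND against untreated mice 1 of the 2 passed, beside 3% of all genes. H6pd, which supplies NADPH to the enzyme that regenerates active glucocorticoid, had a median of 14.8 CPM in untreated, 17.0 in early ND and 25.4 in late ND mice, and the groups overlapped. It rose by 0.65 in late ND against untreated mice (edgeR adjusted p = 0.0478), a call that was kept without untreated 5 and lost without any 1 of the other 9 libraries (adjusted p up to 0.134). Hsd11b1, which encodes that enzyme, differed by -0.10 in the same comparison (adjusted p = 0.749).

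A wider set of 23 genes known to be induced by glucocorticoids was read next. In early ND against untreated mice 0 of 18 tested passed in edgeR, with 9 positive and 9 negative log2 differences. At an unadjusted p under 0.05, 1 was lower, beside 4.44% of all genes in either direction. In late ND against untreated mice 18 log2 differences were positive and 3 negative, with a median of 0.32 beside 0.0023 for all genes. At an unadjusted p under 0.05, 4 were higher and 1 lower, beside 17% of all genes. Of the 21 tested, 1 passed, beside 3% of all genes. This was Zfp36l2, an RNA-binding protein gene that promotes mRNA decay, at 185 ± 21.7 CPM in untreated, 205 ± 27.6 in early ND and 283 ± 39.0 in late ND mice (SD, n = 5 each), which rose by 0.62 (edgeR adjusted p = 0.0316). In late against early ND mice 15 were positive and 5 negative, with a median of 0.33 beside 0.014 for all genes. At an unadjusted p under 0.05, 6 were higher and 1 lower, beside 23.8% of all genes. Of the 20 tested, 1 passed, beside 4.98% of all genes. This was Zfp36, a relative of Zfp36l2 that encodes tristetraprolin. Its median was 110.7 CPM in untreated (range 79.7 to 123), 81.0 in early ND (73.0 to 121.7) and 137.8 in late ND mice (134.8 to 197.7). The ND groups did not overlap (a background of 5.91%), and Zfp36 rose by 0.90 in late against early ND mice (edgeR adjusted p = 0.0210). Leaving out a library kept the call of Zfp36l2 in 2 of 10 fits (adjusted p 0.0246 to 0.0918) and that of Zfp36 in 7 of 10 (0.00757 to 0.0608), lost without early 4, late 3 or late 4. The call of Zfp36l2 was kept without untreated 2 or untreated 5 only.

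Of 14 genes known to be repressed by glucocorticoids, most of them cytokines and chemokines, 4 to 8 had enough counts and 0 passed in any comparison by edgeR. In early ND against untreated mice 2 log2 differences were positive and 2 negative, with a median of -0.14 beside -0.0022 for all genes. In late ND against untreated mice 5 were positive and 1 negative (median 0.22 beside 0.0023). Late against early ND mice had 5 positive and 3 negative (median 0.20 beside 0.014). At an unadjusted p under 0.05 there were 0 in early ND against untreated mice, 1 higher in late ND against untreated mice, and 1 higher and 1 lower in late against early ND mice, beside the same 3 shares of all genes. Il1b, the gene of interleukin-1 beta, was at 263 ± 89.3 CPM in untreated, 184 ± 76.0 in early ND and 306 ± 129 in late ND mice (SD, n = 5 each) and differed by 0.75 in late against early ND mice (edgeR adjusted p = 0.190). The chemokine gene Ccl5 differed by 0.43 in late ND against untreated mice (adjusted p = 0.300).

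The precision differed between the genes. The median SE over all genes was 0.201, 0.195 and 0.192 on the log2 scale in the 3 comparisons. Nr3c1, with an SE of 0.12 against untreated mice, was measured more tightly than most genes. Fkbp5, with 0.39 in early ND against untreated mice, had a larger SE than 90.3% of genes. The smallest adjusted p of the 7 genes over the 3 comparisons was 0.126, that of Zbtb16 in late ND against untreated mice.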

How the data were processed

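Whole blood RNA of 15 mice was analyzed. The authors aligned reads with STAR 2.7.9 (GRCm39), handled them with SAMtools 1.7 and deposited raw counts per gene from HTSeq 0.13.5, without normalization. The processing notes list mm10 beside GRCm39. The protocol names GRCm39 for the index, and gene positions here are those of GRCm39. The annotation release is not given in the sources used here. Of 55416 gene identifiers, 54749 matched GENCODE vM39, from which symbols and positions were taken. Groups came from the labels. Replicates are separate mice, and no 2 libraries of a group agreed within sampling noise.

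Each pair of groups was fitted on the whole table with edgeR 4.0.16 in R 4.3.3 (filterByExpr, TMM, quasi-likelihood test, Benjamini-Hochberg adjustment over all genes, threshold 0.05), and 95% intervals came from the same fit. Per-library CPM used TMM over all 15 libraries, and log2 CPM a prior count of 2. The scripts were tested on simulated data. Python 3.11.15, NumPy 2.4.6 and SciPy 1.17.1 were used for permutation tests, with 100000 resamples. DESeq2 1.42.0, other scalings and filters, a hemoglobin covariate, a replicate block and left-out libraries served as alternatives. Leaving out libraries rich in skin-gland genes (Scd3 of at least 200 CPM) was chosen after seeing the data. Zbtb16 and Klf9 had lower counts than the other members, and the part of counting error in their spread was not tested.

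The 7 genes and the further lists (receptor chaperones, coregulators, steroid metabolism, other induced and repressed targets, clock genes, immediate early and heat shock genes and 11 cell marker lists) were chosen with earlier results of these data known. In further lists, genes passing the threshold were named, up to 6 a list, or else the 2 most abundant. From marker lists the 2 most abundant were named, and marker genes that passed were named after their values were seen. Genes most like a member were the 3 with the highest r, of which 1 is not reported here.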

Additional observations from a re-analysis of the deposited data

Results flagged for a closer look

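Fkbp5 in early 3 stood apart from the other early ND libraries, at 87.4 CPM against 30.8 CPM in the next. The gap to the nearest library was 0.838 of the range of the group, above Dixon's 95% critical value of 0.71 for 5 samples. It was the single case among 21 groups of values, 7 genes in 3 groups, tested at both ends. Chance alone flags about 1 in 20 groups. Early 3 was also the early ND library with the most neutrophil marker RNA, the least T cell marker RNA and the most sebaceous gland RNA, and the part of these in its Fkbp5 level was not tested.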

How the results depend on the processing

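No member was called in the reported fits, and none was called lower under any of 21 alternatives. Scaling by library totals, without TMM, moved the median log2 difference of all genes to 0.91 in late ND versus untreated and to 0.86 in late versus early ND mice, and called 6 of the 7 genes higher in each. All-gene calls were then 7484 higher and 90 lower of 13547 tested, and 8923 and 137 of 13315 (1 and 2 in early ND versus untreated). Library totals also turned Klf9 to 0.069, 0.85 and 0.78 in the 3 comparisons and Ddit4 in late versus early ND mice to 0.55. The DESeq2 Wald test called 1 gene higher in early ND versus untreated, 277 higher and 539 lower in late ND versus untreated, and 834 and 650 in late versus early ND mice. DESeq2 size factors gave 201 higher in the last comparison and no filter gave 886. With the hemoglobin share as covariate, both late ND comparisons called 0 genes in either direction, Klf9 was 0.060 in late ND versus untreated and Ddit4 0.20 in late versus early ND mice. Without the libraries poor in 18S sequence, late ND versus untreated called 0 higher and 0 lower, and late versus early ND 4 and 0. With each library left out in turn, calls ran from 0 to 184 higher and 0 to 409 lower in late ND versus untreated, and from 36 to 1057 and 106 to 553 in late versus early ND mice, where 0 to 2 of the 7 genes were called higher. Without libraries rich in skin-gland genes, 725 genes and 1 of the 7 were higher in late than in early ND mice, Tsc22d3 was -0.062 in early ND versus untreated and Klf9 0.21 in late versus early ND mice. Klf9 also changed sign at a minimum of 10 counts (0.0015, early ND versus untreated) and without a filter (0.047, late versus early ND). With each library left out, signs differed between fits for Tsc22d3 (-0.030 to 0.17) and Klf9 (-0.32 to 0.10) in early ND versus untreated, Klf9 (-0.18 to 0.047) and Nr3c1 (-0.042 to 0.13) in late ND versus untreated, and Zbtb16 (-0.034 to 0.57) and Klf9 (-0.17 to 0.28) in late versus early ND mice. The cause of these changes was not tested.

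Replicate numbers were not taken as pairs, since no label ties them to a shared litter or day and not every pair correlated. The deviations of same-numbered libraries had a mean correlation of -0.099, 0.24 and -0.013 in the 3 comparisons (0.026, -0.058 and 0.0041 for other pairs), 0, 4 and 1 of 5 pairs were over 0.1, and 0, 3 and 1 of 5 libraries correlated best with their own number. For late ND versus untreated this is a hint of pairing from the data, not the design. Its highest values were those of untreated 5 with late 5 (0.58) and untreated 2 with late 2 (0.26). The former are both rich in sebaceous gland genes and the latter both poor in 18S sequence. The part of these features in the correlations was not tested. With a replicate block, late ND versus untreated called 230 genes higher, Klf9 was 0.013 in late versus early ND mice, and 0 of the 7 genes were called. Of the 23 calls among the further and marker lists, 2 held with each library left out (Hemgn and Slc4a1, late versus early ND), 0 with the hemoglobin covariate (lowest adjusted p = 0.555) and 0 without the libraries poor in 18S sequence (0.0520, edgeR). The hemoglobin share was 14.9% to 29.3% in late ND and 31.6% to 64.1% in the other libraries, without overlap, so covariate and group cannot be told apart. Over all alternatives run the log2 difference stayed at 1.02 or more for Ccr2 and 0.90 or more for Atf3 against untreated mice, and at 1.57 or more for Mmp8 against early ND mice. Zbtb16 and Klf9 had as few as 6 and 15 counts in a library.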

Other observations

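Clock genes, several of which glucocorticoids are known to entrain, were read because the hour of the bleed is not given. Of 12, 9 or 10 had enough counts. In late against early ND mice 2 of 10 passed, Tef and Nr1d2, beside 4.98% of all genes. At an unadjusted p under 0.05, 3 clock genes were higher and 2 lower there, beside 23.8% of all genes in either direction. Tef, a PAR-domain transcription factor gene, was at 15.5 ± 2.24 CPM in untreated, 15.9 ± 2.40 in early ND and 10.2 ± 1.59 in late ND mice (SD, n = 5 each) and fell by 0.60 (edgeR adjusted p = 0.0413). Nr1d2, the REV-ERBβ gene, was at 11.6 ± 3.78, 12.9 ± 1.32 and 8.91 ± 0.883 CPM and fell by 0.50 (edgeR adjusted p = 0.0426). Scaling by library totals turned both signs. With 1 library left out the call of Tef was kept without early 3, early 5 or late 2 and that of Nr1d2 without early 3 or late 2, with adjusted p up to 0.0962 and 0.0948 in the other fits. In the other 2 comparisons 0 clock genes passed in edgeR, with 1 gene in each at an unadjusted p under 0.05. The share of all genes was 4.44% in early ND and 17% in late ND against untreated mice.

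Of 10 immediate early and heat shock genes, which respond to handling and to blood processing, 6 to 8 were tested. In late ND against untreated mice 1 of 8 passed, beside 3% of all genes. The stress transcription factor gene Atf3 was at 3.17 ± 0.866 CPM in untreated, 5.05 ± 1.43 in early ND and 6.47 ± 1.42 in late ND mice (SD, n = 5 each) and rose by 1.05 in late ND against untreated mice (edgeR adjusted p = 0.0271), a call kept without untreated 5 and lost without any 1 of the other 9 libraries (adjusted p up to 0.0831). In late against early ND mice 5 of 8 were higher at an unadjusted p under 0.05, beside 23.8% of all genes in either direction, and 0 passed.

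Erythroid markers had the largest median log2 differences of the lists, -2.54 against untreated and -2.57 against early ND mice. In late ND mice 5 of 6 tested were called lower in each comparison, beside 3% and 4.98% of all genes in either direction. Their sum was 18101 ± 12236 CPM in untreated, 17619 ± 9687 in early ND and 3775 ± 1023 in late ND mice (SD, n = 5 each), and the heme synthesis gene Alas2 fell by 2.25 and 2.18 (edgeR adjusted p = 0.0303 and 0.0215). With 1 library left out, the Alas2 calls were kept in 2 and 7 of 10 fits (adjusted p up to 0.0849 and 0.0604), the 5 erythroid calls against untreated mice in 2 to 4 of 10, and those against early ND mice in 5 to 10 of 10. Of 4 hemoglobin genes, 1 was called in late against early ND mice, beside 4.98% of all genes. This was Hbb-bt, which fell by 2.44 (edgeR adjusted p = 0.0392), a call lost without any library but early 1 or early 3. Among 8 monocyte markers, 2 were called in late ND against untreated and 1 against early ND mice, beside 3% and 4.98% of all genes. The growth factor receptor gene Csf1r rose in late ND against untreated mice by 0.73 (edgeR adjusted p = 0.0322) and against early ND mice by 0.75 (0.0425). The chemokine receptor gene Ccr2 rose by 1.11 against untreated mice (edgeR adjusted p = 0.0242). These calls were kept in 2, 3 and 5 of 10 fits with a library left out (edgeR adjusted p up to 0.0958, 0.127 and 0.0712). NK cell, platelet, eosinophil and basophil, skin and sebaceous gland and skeletal muscle markers had 0 genes past the adjusted threshold of edgeR in the 3 comparisons. At an unadjusted p under 0.05 they had at most 3 genes each, the platelet markers in late against early ND mice. There 8 platelet markers were tested, and 23.8% of all genes had such a p in either direction.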
